A study of Mus musculus with 12 samples.

Results

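Matrix proteases and their inhibitors were examined as 51 genes of the 26190 in the expression table. They were taken by gene name and comprise 23 matrix metalloproteinases (MMPs), the 4 tissue inhibitors of metalloproteinases (TIMPs), 19 secreted ADAMTS proteases and 5 ADAMTS-like proteins, which have the ADAMTS docking domains but no protease. The libraries came from mouse embryonic hearts and from heart organoids, in 4 groups of 3 replicates. C57BL/6 embryos at E11.5 gave dissected atria and ventricles of the heart (E11.5H). Heart organoids (HOs), given as C57BL/6 too, were cut at day 13 into a part called atrium-like and a part called ventricle-like. HOs beat, and they are grown out of embryonic stem cells by way of embryoid bodies. According to the methods, the embryoid bodies were placed on a laminin and entactin gel in serum-free medium with FGF4, and BMP4, the GSK3 inhibitor BIO and LIF were added later, so all HO parts share that gel and those factors. The methods name stem cell lines from C57BL/6 and from a hybrid of C57BL/6 and JF1, and which line gave which library is not given in the sources used here. The methods count the HO samples as biological triplicates, but no source used here says whether they came from separate cultures, or the embryos from separate litters, so p-values measure the spread between these libraries.

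MMPs are zinc proteases that cut collagens, elastin, proteoglycans and basement membrane, and most are secreted as inactive proenzymes that another protease must open. TIMPs bind the active site of MMPs and, in the case of Timp3, also of several ADAMTS proteases. In the embryonic heart the jelly-like matrix between myocardium and endocardium is rich in versican and hyaluronan, and ADAMTS proteases that cut versican are known for clearing it while trabeculae and cushions form.

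Each library had 23971258 to 30540993 fragments on genes, at which 3 fragments, the limit a count of 0 allows, are 0.0982 to 0.125 CPM, the fragment count scaled to the library total, covering counting error only. FPKM, the fragment count scaled to transcript length and library total, is given as the authors deposited it. It is per length, so levels of different genes can be set side by side, but it carries no correction for composition between libraries. Summed CPM of 16 cardiomyocyte genes were 32889 to 39030 in E11.5H and 742 to 9563 in HO parts, so the HO parts held less cardiomyocyte RNA per library, although all 16 were above 0 in each library. Nppa, the atrial natriuretic peptide gene, had 1925 to 3058 FPKM in E11.5H and 0.528 to 8.75 FPKM in HOs, and Myh7, the myosin of ventricles, 1185 to 1455 FPKM in ventricles and 3.82 to 37.9 FPKM in ventricle-like parts. In bulk tissue, fewer cells of a type and less RNA per cell cannot be told apart. Summed CPM of 12 gut epithelium genes were 76.4 to 110 in E11.5H and 1124 to 10057 in HO parts. Those of 12 hepatocyte and visceral endoderm genes were 38.2 to 48.2 and 264.9 to 26656 CPM, and those of 10 endothelial genes 792.1 to 973.9 and 50.1 to 309.3 CPM. Those of 10 fibroblast and mesenchyme genes were 2279 to 4096 and 2903 to 28386, and those of 10 macrophage genes 60.1 to 116 and 166 to 1163, respectively. Spread within a group was taken over genes with a mean of at least 1 FPKM in that group, a set that differs between groups. The median coefficient of variation was 14.7% over 23 members in atria and 17.5% over 21 in ventricles. It was 95.7% over 28 members in atrium-like and 62.5% over 35 in ventricle-like parts. Over all genes that reached this mean these medians were 10.1%, 9.13%, 31.9% and 24.6%.

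**Figure D1:**
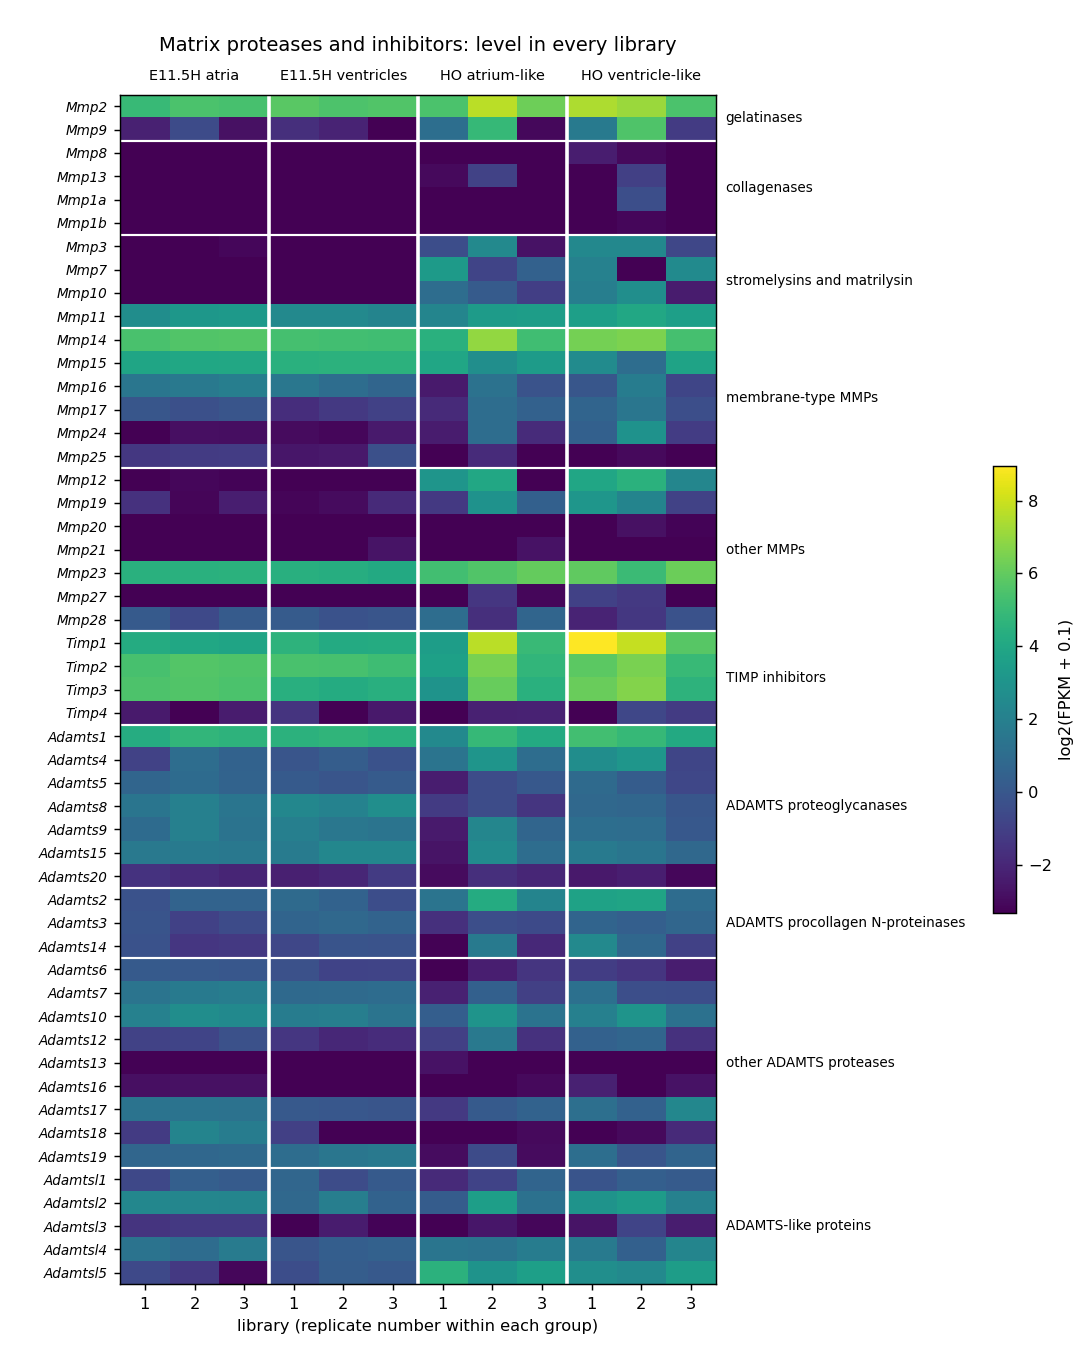
Level of each of the 51 members (rows, grouped by role) in each of the 12 libraries (columns, 3 per group), as log2(FPKM + 0.1). Mmp2, Mmp14, Mmp23, the first 3 TIMPs and Adamts1 are bright in nearly every column, the collagenases, Mmp3, Mmp7, Mmp10 and Mmp12 are dark in E11.5H, and the HO columns differ from one another more than the E11.5H columns do.

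In E11.5H a few genes carried most of the protease and inhibitor RNA. Mmp2 (gelatinase A, chromosome 8 from 92827297 to 92853421 of GRCm38) and Mmp14 (chromosome 14 from 54431598 to 54442456), the membrane-anchored protease that activates proMmp2, together made up 60.4% to 64.7% of the summed MMP FPKM in the 6 libraries. Mmp23 (17.7 to 23.2 FPKM) and Mmp15 (14.95 to 23.8 FPKM) followed. Of the inhibitors, Timp2, which takes part in the activation of proMmp2 on the cell surface, had 35.8 to 50.8 FPKM, and Timp4 at most 0.254 FPKM. Adamts1 (chromosome 16 from 85793828 to 85803113), a protease of versican, made up 42.5% to 48.2% of the summed ADAMTS FPKM. It had 19.1, 27.3 and 24.8 FPKM in atria and 23.7, 25.9 and 22.1 FPKM in ventricles, ranges that overlap. Of all members, 24 had a mean of at least 1 FPKM over E11.5H and 29 over HOs.

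At the other end, 12 members had at most 3 fragments in every E11.5H library, namely the 10 MMP genes that lie side by side on chromosome 9, Mmp21 and Adamts13, the protease of von Willebrand factor. In HOs, 10 of these 12 had more than 3 fragments in at least 1 library and 4 in at least 4 libraries. Of the 8751 genes of the table that were as low in E11.5H, 26.3% and 6.5% did so. The exceptions were Mmp1b and Mmp21, which had at most 3 fragments in every library.

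The chromosome 9 genes span 427.1 kb in the order Mmp13, Mmp12, Mmp1b, Mmp3, Mmp1a, Mmp10, Mmp8, Mmp27, Mmp20 and Mmp7, with 1 further gene of the table, AV064505, between the outer ends. They include the collagenases (Mmp1a, Mmp1b, Mmp8, Mmp13), the stromelysins Mmp3 and Mmp10, matrilysin (Mmp7) and the macrophage elastase Mmp12. Their summed level was at most 0.0254 FPKM in any E11.5H library. It was 21.3, 24.2 and 1.78 FPKM in atrium-like parts and 28.9, 36.2 and 11.3 FPKM in ventricle-like parts, so every HO library lay above every E11.5H library. The genes beside the cluster were read in both tissues, with Dcun1d5 at 21.3 to 24.7 FPKM in E11.5H and 17.3 to 32.6 FPKM in HOs, and Tmem123 at 42.2 to 50.6 and 16.4 to 56.0 FPKM.

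Mmp12 (chromosome 9 from 7344397 to 7360461) had 8.37, 16.5 and 0 FPKM in atrium-like and 15.3, 22.8 and 4.84 FPKM in ventricle-like parts, against 0 in all ventricles and at most 0.0160 FPKM in atria. It was at least 566.5-fold higher in ventricle-like parts than the limit for ventricles (edgeR adjusted p = 0.00603). The third atrium-like library was the only HO library without it. The filter on low counts left it untested in atrium-like parts, where 2956 fragments stood against 3 in the atria, a ratio of CPM of 1075 (95% exact interval 367.4 to 5215, counting error only).

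Mmp3 had 0.641, 5.44 and 0.0512 FPKM in atrium-like and 5.24, 5.29 and 0.514 FPKM in ventricle-like parts, and was at least 70.6-fold higher in ventricle-like parts than the limit for ventricles (edgeR adjusted p = 0.0195). Mmp10, the second stromelysin, had 1.97, 1.05 and 0.390 FPKM in atrium-like parts and was at least 22.7-fold higher than the limit for atria (edgeR adjusted p = 0.0160), and at least 14.2-fold without the first atrium-like library. In ventricle-like parts it had 3.68, 6.61 and 0.0889 FPKM, untested. All E11.5H libraries were at 0 for Mmp10, and all ventricles and all atria except the third for Mmp3. Without single libraries the call was lost in 4 of 6 settings for Mmp3, 3 of 6 for Mmp10 and 4 of 6 for Mmp7.

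Mmp7 had 10.3, 0.476 and 1.32 FPKM in atrium-like parts and was at least 52.1-fold higher than the limit for atria (edgeR adjusted p = 0.0346), a limit that was 11.6-fold without the first atrium-like library. It had 4.14, 0 and 5.86 FPKM in ventricle-like parts, untested. The HO libraries were not in the same order for Mmp7 as for Mmp12. Mmp7 was highest in the first atrium-like and the third ventricle-like library, where the gut epithelium genes summed to 10057 and 5094 CPM, and at 0 in the second ventricle-like library, which had the lowest sum of the HO libraries, 1124 CPM. The order was not the same throughout, since the third atrium-like library had 8196 CPM of those genes. Other lists had a similar order. The 6 epicardium and mesothelium genes summed to 976, 270 and 730 CPM in atrium-like and 897, 99.1 and 1033 CPM in ventricle-like parts. The hepatocyte and visceral endoderm genes were highest in the first atrium-like and the third ventricle-like library, at 26656 and 13029 CPM. They were lowest in the second ventricle-like library, at 264.9 CPM. The part of any of these cells in the Mmp7 level was not tested.

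The other cluster genes stayed low in HOs as well. Mmp13 reached 0.441 FPKM, Mmp27 0.4155, Mmp8 0.0996 and Mmp20 0.0467 FPKM. Mmp1a was read in 1 library, the second ventricle-like one, at 0.680 FPKM. Mmp1a and Mmp1b are close copies of each other, and the counting may split their reads.

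**Figure D2:**
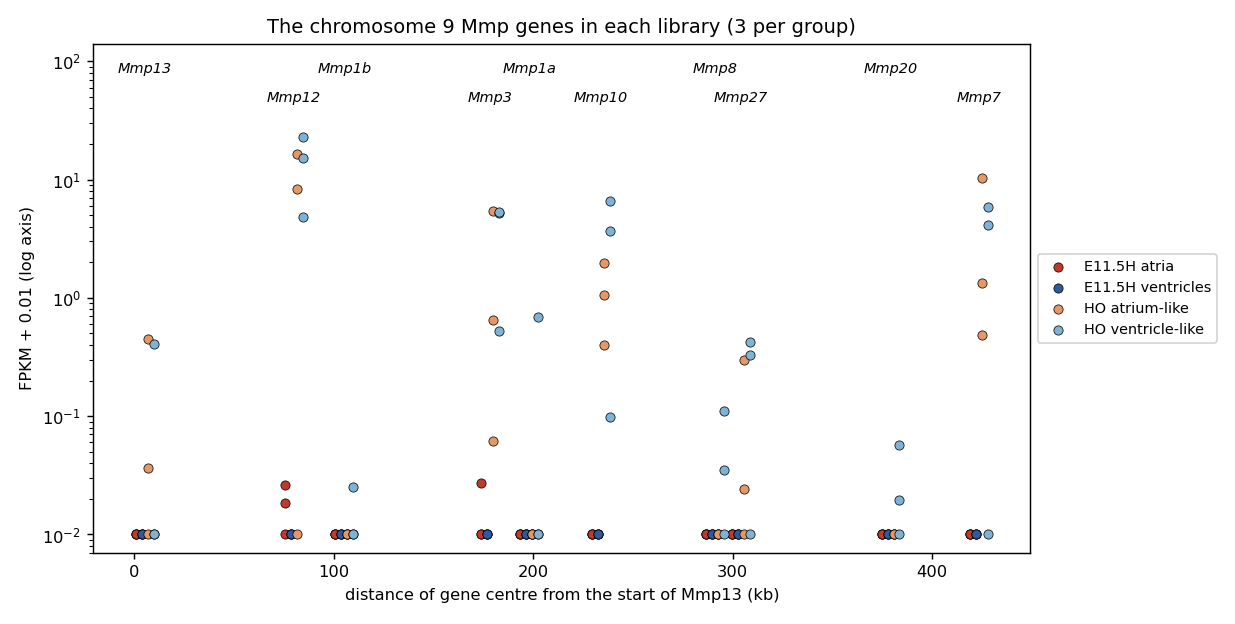
FPKM + 0.01 on a log axis (y) against the distance in kb of each gene's centre from the start of Mmp13 (x) for the 10 neighbouring MMP genes, with 1 dot per library and colors for the 4 groups. Dots of E11.5H lie at or near the floor for every gene, whereas HO dots reach 22.8 FPKM at Mmp12 and 10.3 FPKM at Mmp7.

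The starts of these genes were compared in the promoter sequences of RefSeq (GRCm38.p6, 250 bases before to 50 after each start), which hold 36 of the 51 members and all 10 cluster genes. The heptamer TGAGTCA, on either strand (TGACTCA on the other), is the classical site of AP-1, the Fos and Jun factors. It occurred at 7 of the 10 cluster genes, at 0 of the other 26 members with a promoter, and at 5.9% of the 27025 genes in the RefSeq set. Within the 100 bases before the start it occurred at the same 7 genes and at 2.19% of all genes. The hexamer TATAAA, on either strand, occurred at 9 of the 10 cluster genes, 3 of the other members and 15.7% of all genes. The 7 stretches of 100 bases before the start are shown to place the heptamer, 35 to 93 bases before the start, beside the values above. They are written 5′ to 3′ on the gene's strand, and capitals mark the heptamer and any TATAAA on that strand.
Mmp13: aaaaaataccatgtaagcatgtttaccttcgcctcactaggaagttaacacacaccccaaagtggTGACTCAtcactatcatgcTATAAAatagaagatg
Mmp12: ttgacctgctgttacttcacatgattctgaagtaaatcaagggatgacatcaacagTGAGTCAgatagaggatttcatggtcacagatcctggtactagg
Mmp1b: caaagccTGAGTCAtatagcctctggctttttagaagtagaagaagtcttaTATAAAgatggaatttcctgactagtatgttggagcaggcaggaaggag
Mmp3: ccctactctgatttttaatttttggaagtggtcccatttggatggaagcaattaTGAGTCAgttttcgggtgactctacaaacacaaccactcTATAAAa
Mmp1a: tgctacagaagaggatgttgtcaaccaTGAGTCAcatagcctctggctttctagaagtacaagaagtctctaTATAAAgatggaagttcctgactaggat
Mmp10: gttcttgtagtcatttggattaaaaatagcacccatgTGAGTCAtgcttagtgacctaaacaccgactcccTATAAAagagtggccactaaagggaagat
Mmp7: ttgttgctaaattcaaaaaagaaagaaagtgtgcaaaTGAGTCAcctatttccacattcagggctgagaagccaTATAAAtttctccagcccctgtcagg
They lie at chr9:7272414-7272513 (Mmp13), chr9:7347274-7347373 (Mmp12, at an alternative start within the gene), chr9:7388027-7388126 (Mmp1b, minus strand), chr9:7445722-7445821 (Mmp3), chr9:7464041-7464140 (Mmp1a), chr9:7502242-7502341 (Mmp10) and chr9:7691990-7692089 (Mmp7). The 7 genes with the heptamer included the 4 most abundant in HOs (Mmp12, Mmp7, Mmp10 and Mmp3) and also Mmp1b, which was not read above 3 fragments anywhere. A match of letters is not a bound site, and no binding was measured.

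To find which members differ between the chambers of the embryonic heart, atria and ventricles of E11.5H were compared over the 36 members that passed the filter on low counts. Calls needed an adjusted p below 0.05 in edgeR and more than a 2-fold difference, which is 1 on the log2 scale. Of the 36 members 6 were called, 5 higher and 1 lower in atria, where 4.9% of the 14536 genes tested were called (2.92% higher and 1.97% lower). Without the limit on fold change 15 members had an adjusted p under 0.05, against 13.6% of all genes. The libraries of the chambers did not overlap in FPKM for 21 of the 36 members and for 33.1% of all genes. The median log2 difference was 0.20 over the members and 0.01 over all genes.

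Timp3 (chromosome 10 from 86300412 to 86349505), the inhibitor that binds to matrix, had 46.7, 49.1 and 44.6 FPKM in atria and 21.3, 19.0 and 21.3 FPKM in ventricles. Every atrial library lay above every ventricular one, with a log2 fold change of 1.12 (SE 0.08, edgeR adjusted p = 1.11e-05). Timp1 and Timp2 did not pass. Timp1 had 18.4, 15.8 and 14.2 FPKM in atria and 24.7, 18.2 and 18.8 FPKM in ventricles (log2 fold change -0.42, SE 0.17, edgeR adjusted p = 0.135), and Timp2 41.4, 50.8 and 47.8 against 43.0, 41.4 and 35.8 FPKM (0.15, SE 0.08, edgeR adjusted p = 0.292). Timp1, Timp3 and Timp4 each lie within a synapsin gene on the opposite strand, and the use of strand in counting is not stated. Syn3, the gene around Timp3, had at most 0.132 FPKM in E11.5H.

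No MMP passed both limits between the chambers in edgeR. Mmp17, a membrane-type MMP chosen here after its values were seen, had 0.884, 0.696 and 0.833 FPKM in atria and 0.209, 0.311 and 0.423 FPKM in ventricles, without overlap, and missed the edgeR threshold (1.28, SE 0.41, edgeR adjusted p = 0.0688). DESeq2 called it, as did edgeR with library totals. Mmp15 (chromosome 8 from 95352296 to 95374293), a membrane-type MMP, had 14.95, 15.9 and 16.3 FPKM in atria and 21.9, 23.7 and 23.8 FPKM in ventricles, with no overlap, a log2 fold change of -0.63 (SE 0.08) and an edgeR adjusted p of 0.000619. Mmp2 had 31.2, 45.1 and 41.2 FPKM in atria and 56.6, 46.7 and 49.1 FPKM in ventricles, also without overlap (-0.45, SE 0.12, edgeR adjusted p = 0.0336). Mmp11 (stromelysin 3) was on the other side, with 6.40, 9.05 and 9.64 FPKM in atria and 5.40, 5.46 and 4.54 FPKM in ventricles (0.63, SE 0.17, edgeR adjusted p = 0.0365). Mmp14 had 42.7, 49.7 and 51.5 FPKM in atria and 39.9, 38.2 and 36.7 FPKM in ventricles, a separation of 0.26 (SE 0.08) that missed the threshold (edgeR adjusted p = 0.0520).

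Among ADAMTS genes the calls fell on members with at most 4.62 FPKM. Adamts17 (chromosome 7 from 66839735 to 67152625) had 2.48, 2.44 and 2.35 FPKM in atria and 0.978, 0.925 and 0.854 FPKM in ventricles (log2 fold change 1.33, SE 0.17, edgeR adjusted p = 0.000569). Adamts12 had 0.439, 0.479 and 0.722 against 0.290, 0.158 and 0.193 FPKM (1.29, SE 0.37, edgeR adjusted p = 0.0453). Both were higher in every atrial library.

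Adamts18 (chromosome 8 from 113697124 to 113848839) had 0.337, 4.62 and 3.42 FPKM in atria and 0.401, 0 and 0 FPKM in ventricles, so that the groups overlapped although it was called (4.29, SE 1.23, edgeR adjusted p = 0.0453). The first library of each chamber stood apart, low in atria and the only one with fragments in ventricles. With a library left out the log2 fold change ran from 3.70 to 12.02, the upper value without the first ventricular library, when all ventricles are at 0 and the fitted value is no measure of size. Adamts3 (chromosome 5 from 89673841 to 89883334), a procollagen N-proteinase that also processes VEGF-C, was the only call in the other direction, with 0.811, 0.422 and 0.595 FPKM in atria and 1.43, 1.67 and 1.38 FPKM in ventricles (-1.35, SE 0.26, edgeR adjusted p = 0.00656). The groups did not overlap.

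Of the 7 ADAMTS proteoglycanases 0 were called, and 3 had an edgeR adjusted p under 0.05 but missed the fold limit. Adamts5, an aggrecanase that also cuts versican, had 1.49, 1.84 and 1.40 FPKM in atria and 1.004, 0.833 and 1.04 FPKM in ventricles (0.64, SE 0.19, edgeR adjusted p = 0.0489). Adamts9 had 1.85, 4.01 and 2.46 against 3.85, 2.81 and 2.51 FPKM, which overlap. Adamts2, another procollagen N-proteinase, and Adamtsl1 also overlapped, at 0.751 to 1.43 against 0.657 to 1.81 FPKM and 0.523 to 1.196 against 0.628 to 1.55 FPKM. Of the ADAMTS-like genes, Adamtsl4, a protein of fibrillin microfibrils, was called higher in atria, with 2.46, 1.90 and 3.38 against 0.842, 1.16 and 1.29 FPKM (1.16, SE 0.28, edgeR adjusted p = 0.0210). Adamtsl2 (1.05) and Adamtsl3 (2.99), named here after their values were seen, were also higher in every atrial library. Both missed the edgeR threshold, and DESeq2 and limma voom called both. Adamtsl3 had at most 0.310 FPKM in E11.5H.

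Past the adjusted p but under the fold limit were also Adamts7 (0.70) and Adamts10 (0.65), higher in atria, and Adamts8 (-0.86), Adamts15 (-0.65) and Adamts19 (-0.73), lower in atria. The 15 members left untested by the filter were the 10 MMPs of the chromosome 9 cluster, Mmp21, Mmp24, Timp4, Adamts13 and Adamts16.

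Timp3, Adamts17 and Adamts3 were called whichever of the 6 libraries was left out. The calls of Adamts18 and Adamts12 were each lost in 4 and that of Adamtsl4 in 3 of these 6 settings. With every library, DESeq2 kept 5 of the 6 calls, without Adamts18. Limma voom and edgeR with a replicate block each kept 4, without Adamts18 and Adamts12. Over all genes these 3 settings called 894, 677 and 621 of 14536. Without the third atrial library 3 members remained called, and 538 of 14863 genes were, against 712 of 14536 with every library. In a fit of all 12 libraries together, in which the spread of HOs enters the test, edgeR called 0 members, with 5 at an unadjusted p under 0.05. It called 30 of all 16494 genes.

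**Figure D3:**
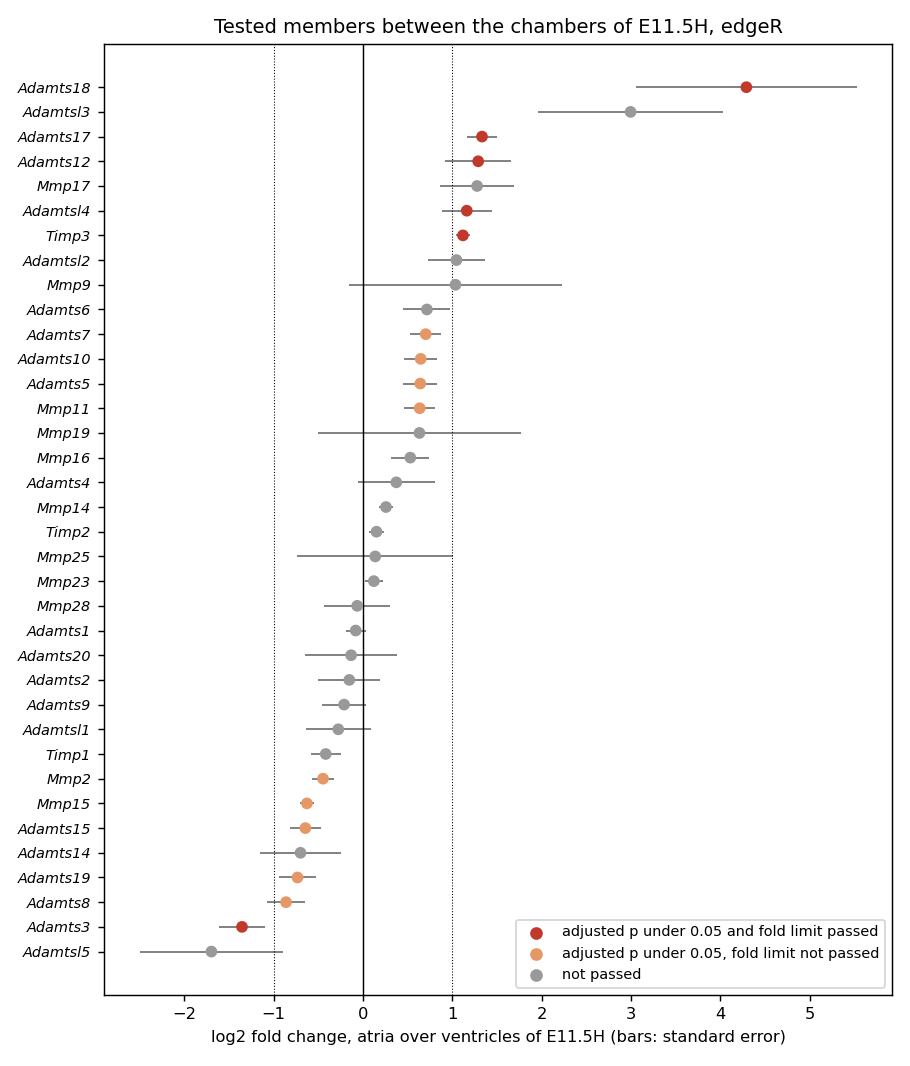
Log2 fold change of atria over ventricles of E11.5H (x) for the 36 tested members (y), with bars for the standard error and dotted lines at the fold limit, red dots for members past both limits and orange dots for those past the adjusted p alone. Timp3 at 1.12 and Mmp15 at -0.63 have among the shortest bars, and Adamts18 at 4.29 a long one.

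To see how the HO parts differ from the chambers they are named for, atrium-like parts were compared with atria and ventricle-like parts with ventricles. Of 39 tested members 9 were called in atrium-like parts, 7 higher and 2 lower, where 24.8% of the 15418 genes tested were called (16% higher and 8.81% lower). Of 38 tested members 12 were called in ventricle-like parts, 11 higher and 1 lower, where 18.9% of 15094 genes were called (11.6% higher and 7.35% lower). Without the fold limit the same 9 and 12 members had an adjusted p under 0.05, against 31.5% and 29.6% of all genes. The median log2 difference over the tested members was -0.05 in atrium-like parts (all genes 0.06) and 1.29 in ventricle-like parts (all genes 0.09). Members read in HOs alone passed the filter only where they were high, so these counts are no support for a direction of the family. The libraries did not overlap for 17 of 39 members in the first comparison and 22 of 38 in the second, against 54.4% and 50.7% of all genes.

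These counts depended on single libraries, as did those over all genes. In the atrial comparison the number called was 2 to 4 without any 1 of the atria, 13 without the first and 16 without the second atrium-like library. Over all genes it was 3821 with every library, and 1662 to 1726, 3726 and 5495 in these settings. In the ventricular comparison the number of members was 4 without any 1 of the ventricles, 7 without the first and 23 without the third ventricle-like library. Over all genes it was 2859 with every library, and 1116 to 1212, 2114 and 3725 in these settings. Adamts8 and Mmp23 in the first comparison and Adamtsl5, Adamts8, Mmp11 and Mmp12 in the second were called by edgeR whichever library was left out. The calls also depended on the test. With every library, limma voom kept 4 edgeR calls in the first comparison, Adamts8, Adamtsl5, Mmp10 and Mmp23. In the second it kept 4, Adamts8, Adamtsl5, Mmp11 and Mmp23, and lost the others, Mmp12 among them. DESeq2 kept every edgeR call in both comparisons.

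Of the 2 gelatinases, 1 was called in each part, Mmp2 in atrium-like and Mmp9 in ventricle-like parts. Mmp2 had 44.3, 204 and 76.0 FPKM in atrium-like parts, called against atria at a log2 fold change of 1.56 (SE 0.48, edgeR adjusted p = 0.0495), but the first library lay within the range of atria. The call was lost in 5 of the 6 settings with a library left out, and without the second atrium-like library the log2 fold change was 0.85. In ventricle-like parts it had 177, 140 and 44.4 FPKM (1.15, SE 0.47, edgeR adjusted p = 0.115). The first atrium-like and the third ventricle-like library were at the level of E11.5H, and the other HO libraries above it.

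Mmp9 (gelatinase B, chromosome 2 from 164948219 to 164955850) had at most 0.598 FPKM in E11.5H. It had 2.09, 29.5 and 0.0194 FPKM in atrium-like parts (log2 fold change 5.41, SE 2.14, edgeR adjusted p = 0.1003) and 3.15, 48.1 and 0.340 FPKM in ventricle-like parts (7.05, SE 2.11, edgeR adjusted p = 0.0495). The call in ventricle-like parts was lost in 5 of the 6 settings with a library left out, and without the second ventricle-like library the log2 fold change was 3.82. The second library of each HO part held most of the Mmp9 fragments.

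Macrophage genes, among others, moved with Mmp9 and Mmp12. The 10 of them summed to 371, 1163 and 166 CPM in atrium-like and 668, 990 and 193 CPM in ventricle-like parts, with all 10 above 0 FPKM in each HO library. The 5 osteoclast genes summed to 84.2, 109.8 and 38.1 CPM in atrium-like and 19.4, 90.5 and 26.1 CPM in ventricle-like parts, with Calcr at 0 in every HO library. Mmp9, Mmp12 and both sums were highest in the second library of each part. So were the sums of endothelial genes (309.3 and 242.5 CPM), of 6 smooth muscle genes (1142 and 1520 CPM) and of 10 cartilage and bone genes (315.6 and 382.4 CPM). Those of gut epithelium and of hepatocyte and visceral endoderm genes were not. The part of any of these cells in the levels of Mmp9 and Mmp12 was not tested.

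Of the membrane-type MMPs, 0 of 6 tested were called in atrium-like parts by edgeR, with 1 at an unadjusted p under 0.05, and 2 of 5 in ventricle-like parts, namely Mmp24 and Mmp17. Mmp24 had 0.0919, 1.98 and 0.183 FPKM in atrium-like and 1.26, 7.60 and 0.361 FPKM in ventricle-like parts, against at most 0.0855 FPKM in E11.5H (ventricle-like against ventricles 6.00, SE 1.43, edgeR adjusted p = 0.0259). It shares 635 bases with BC029722 on the opposite strand, a gene at 4.05 FPKM or more in every library. Mmp17, which is held by a lipid anchor, had 1.43, 2.71 and 0.661 FPKM in ventricle-like parts against 0.209, 0.311 and 0.423 FPKM in ventricles (2.24, SE 0.63, edgeR adjusted p = 0.0423), with no overlap. The call was lost in 3 of 6 settings with a library left out for Mmp24 and 5 of 6 for Mmp17, and without the second ventricle-like library the log2 fold changes were 4.12 and 1.66.

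Mmp14 itself was not called in either part, with 21.8, 125 and 36.3 FPKM in atrium-like parts (0.43, SE 0.54, edgeR adjusted p = 0.578) and 82.5, 91.3 and 40.1 FPKM in ventricle-like parts (0.80, SE 0.29, edgeR adjusted p = 0.0872). Mmp15 had 15.3, 6.66 and 10.7 FPKM in atrium-like parts and 5.89, 1.99 and 13.9 FPKM in ventricle-like parts. In the latter every library lay below every ventricle, at a log2 fold change of -1.76 that did not pass (SE 0.65, edgeR adjusted p = 0.0875).

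Other MMPs were called in both parts or in ventricle-like parts. Mmp23 (chromosome 4 from 155650655 to 155653384), an MMP with an unusual C-terminal part, had 38.3, 49.2 and 66.4 FPKM in atrium-like and 62.8, 33.2 and 73.0 FPKM in ventricle-like parts, every library above every E11.5H library. Its log2 fold change was 1.37 (SE 0.21, edgeR adjusted p = 0.00699) against atria and 1.44 (SE 0.30, edgeR adjusted p = 0.0182) against ventricles, a call lost in 4 of 6 settings with a library left out. Mmp19 had 0.317, 7.47 and 1.27 FPKM in atrium-like and 8.79, 4.57 and 0.430 FPKM in ventricle-like parts, against at most 0.239 FPKM in E11.5H (4.66, SE 1.39, edgeR adjusted p = 0.0460, and 5.85, SE 1.45, edgeR adjusted p = 0.0292). The call of Mmp19 was lost in 5 of 6 settings with a library left out in atrium-like and 4 of 6 in ventricle-like parts, and without the second atrium-like library the log2 fold change was 2.89. Mmp11 was called in ventricle-like parts, with 12.3, 16.2 and 12.3 FPKM (1.31, SE 0.18, edgeR adjusted p = 0.00511), and not in atrium-like parts, with 4.70, 10.8 and 11.2 FPKM (0.23, SE 0.33, edgeR adjusted p = 0.627).

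Among the inhibitors, Timp1 (chromosome X from 20870166 to 20874737) had the highest level of any member in an HO library. It had 11.1, 206 and 32.3 FPKM in atrium-like parts (log2 fold change 2.41, SE 0.94, edgeR adjusted p = 0.0962) and 497, 234 and 55.0 FPKM in ventricle-like parts (3.59, SE 0.77, edgeR adjusted p = 0.0196). Every ventricle-like library lay above every ventricle, whereas the first atrium-like library lay below every atrium. The call in ventricle-like parts was lost in 3 of the 6 settings with a library left out, where the log2 fold change ranged from 2.66 to 4.05. Syn1, around Timp1 on the opposite strand, reached 9.59 FPKM in HOs.

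Timp2 and Timp3 were not called. Timp3 had 7.72, 67.6 and 22.4 FPKM in atrium-like parts (-0.45, SE 0.63, edgeR adjusted p = 0.619) and 71.1, 103 and 24.1 FPKM in ventricle-like parts (1.59, SE 0.48, edgeR adjusted p = 0.0522). Timp2 had 12.3, 88.9 and 26.6 FPKM and 58.6, 90.5 and 30.6 FPKM, with log2 differences of -0.05 (SE 0.59) and 0.48 (SE 0.36). Timp4 stayed at or below 0.520 FPKM in HOs. In ventricle-like parts Timp1 made up 79.3%, 54.6% and 49.97% of the summed TIMP FPKM, against 23.2% to 27.7% in ventricles. In atrium-like parts it made up 35.75%, 56.8% and 39.7%, against 13.3% to 17.3% in atria.

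The ratio of summed MMP to summed TIMP FPKM was 1.15, 1.27 and 1.39 in atria and 1.67, 1.75 and 1.79 in ventricles. In HOs it was 4.82, 1.28 and 2.55 in atrium-like and 0.614, 0.902 and 1.80 in ventricle-like parts. The embryonic chambers did not overlap, with the ratio higher in ventricles, whereas the HO parts did and spread on both sides of the embryonic values. It is a ratio of RNA levels and not of active enzyme.

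**Figure D4:**
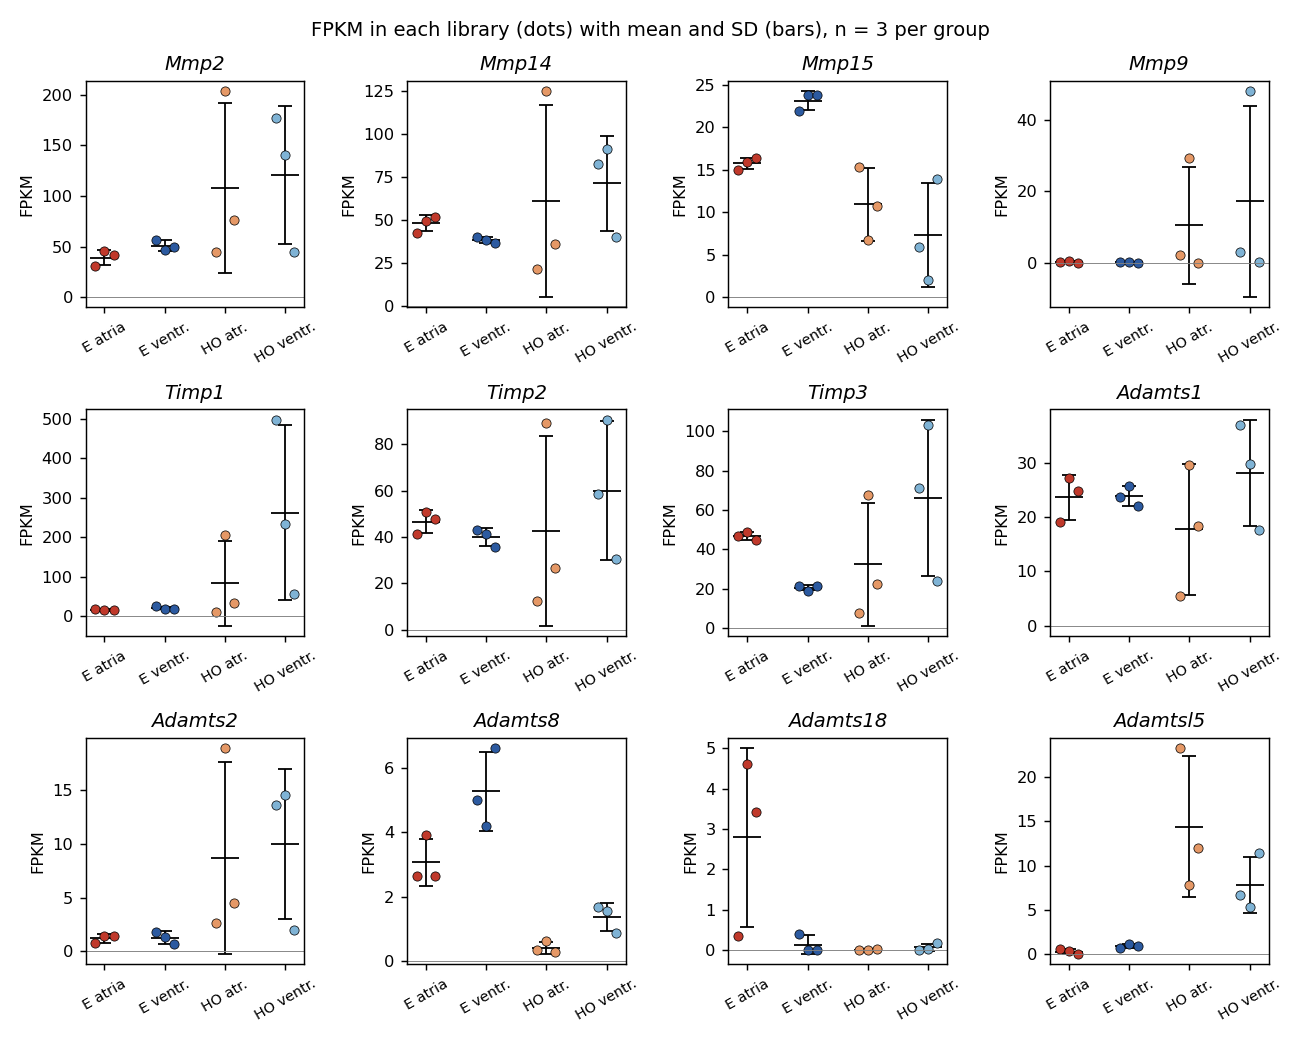
FPKM (y) of 12 members in each library (dots, 3 per group) with the mean and SD (bars) for the chambers of E11.5H and the parts of HOs, each panel on its own linear axis. HO dots spread widely for Mmp2, Mmp14, Mmp9 and the TIMPs, Adamts8 lies lower and Adamtsl5 higher in every HO library than in any E11.5H library, and Adamts18 is highest in the second and the third library of atria.

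The genes of fibroblasts and mesenchyme differed along with several of these members. Their summed CPM were 4635, 16419 and 5973 in atrium-like and 28386, 11155 and 2903 in ventricle-like parts, and the libraries with the 3 highest sums were also the 3 highest for Mmp2, Mmp14, Timp1, Timp2, Timp3 and Adamts2. When libraries were scaled to equal sums of those 10 genes, which shifted the median of all genes by -1.11 and -1.24, the members called by edgeR were 18 in atrium-like parts, 3 higher and 15 lower, and 3 in ventricle-like parts. Over all genes 5844 of 15418 and 732 of 15094 were called under that scaling. With the median moved that far, a sign under this scaling gives no direction for a single member. The same libraries also had the 3 highest sums of macrophage, endothelial, smooth muscle and cartilage and bone genes, so their order does not single out fibroblasts and mesenchyme. Those of gut epithelium, hepatocyte and visceral endoderm, and epicardium and mesothelium genes had another order. The part of any of these cells in the levels was not tested.

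Of the 3 procollagen N-proteinases, 1 was called in each part. Adamts2 (chromosome 11 from 50602085 to 50807573), which removes the N-terminal propeptide of fibrillar procollagens, was that member in both. It had 2.59, 18.9 and 4.50 FPKM in atrium-like and 13.6, 14.5 and 1.93 FPKM in ventricle-like parts, against 0.657 to 1.81 FPKM in E11.5H (2.93, SE 0.72, edgeR adjusted p = 0.0253, and 2.89, SE 0.79, edgeR adjusted p = 0.0383). All HO libraries were above all E11.5H libraries. The call was lost in 3 of 6 settings with a library left out in atrium-like and 5 of 6 in ventricle-like parts, and without the second atrium-like library the log2 fold change was 1.80.

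Of the 7 proteoglycanases, 1 was called in each part. Adamts8 (chromosome 9 from 30942562 to 30963838, far from the MMP cluster) was lower in both. It had 2.63, 3.91 and 2.65 FPKM in atria and 5.01, 4.20 and 6.61 FPKM in ventricles, and 0.333, 0.627 and 0.266 FPKM in atrium-like and 1.68, 1.55 and 0.869 FPKM in ventricle-like parts. The log2 fold changes were -2.76 (SE 0.41, edgeR adjusted p = 0.00613) and -2.05 (SE 0.34, edgeR adjusted p = 0.00933), with no overlap in either comparison.

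Adamts18, called higher in atria than ventricles by edgeR but not by DESeq2 or limma voom, was read little in atrium-like parts, at 0, 0 and 0.0262 FPKM. Its 1636 fragments in the 3 atria stood against 5 in the 3 atrium-like libraries, a ratio of CPM of 299.9 (95% exact interval 128.3 to 925, counting error only), and it was called (edgeR adjusted p = 0.0133), a call lost in 2 of 6 settings with a library left out. It was not tested in ventricle-like parts, which had 0, 0.0261 and 0.173 FPKM. Adamts1, Adamts5 and Adamts9 were not called in either part. Adamts1 had 5.37, 29.7 and 18.4 FPKM in atrium-like parts (log2 difference -0.31, SE 0.49) and 37.2, 29.8 and 17.7 FPKM in ventricle-like parts (0.15, SE 0.27).

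Adamts5 had 0.0949, 0.633 and 0.952 FPKM in atrium-like parts (-1.36, SE 0.71) and 1.79, 1.11 and 0.518 FPKM in ventricle-like parts (0.16, SE 0.48). Adamts9 had 0.0824, 4.89 and 1.51 FPKM (-0.30, SE 1.07) and 2.03, 2.02 and 0.926 FPKM (-0.97, SE 0.35). The first atrium-like library was the lowest HO library for each of Adamts1, Adamts5 and Adamts9. It alone had the lowest HO level for 23 of the 49 members read above 3 fragments in an HO library, and for 34.2% of all such genes.

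Of the 5 ADAMTS-like genes, 1 was called in each part. Adamtsl5 (chromosome 10 from 80339793 to 80348448), which binds fibrillin microfibrils, was that gene in both. It had 0.548, 0.317 and 0.0173 FPKM in atria and 0.640, 1.13 and 0.970 FPKM in ventricles, and 23.3, 7.87 and 12.03 FPKM in atrium-like and 6.70, 5.37 and 11.4 FPKM in ventricle-like parts. The log2 fold changes were 5.84 (SE 1.11, edgeR adjusted p = 0.0125) and 3.005 (SE 0.40, edgeR adjusted p = 0.00489). With a library left out the first ran from 5.16 to 6.67, and its call was lost in 1 of 6 settings, without the second atrial library. Its levels were ordered over the 6 HO libraries as the summed gut epithelium genes were, highest in the first atrium-like and lowest in the second ventricle-like library. The summed hepatocyte and visceral endoderm genes were highest and lowest in the same libraries, at 26656 and 264.9 CPM. The part of these cells in the Adamtsl5 level was not tested. Adamtsl1 was not called, with 0.177 to 1.46 FPKM in HOs.

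Over the tested members that were not called, log2 differences ran from -3.25 (Adamtsl3) to 5.41 (Mmp9) in atrium-like parts and from -1.76 (Mmp15) to 2.48 (Adamtsl3) in ventricle-like parts. Adamts4, an aggrecanase, had 0.439 to 1.97 FPKM in E11.5H and 2.58, 8.398 and 1.96 FPKM in atrium-like and 6.39, 8.67 and 0.489 FPKM in ventricle-like parts, with log2 differences of 1.91 and 2.41 that did not pass (edgeR adjusted p = 0.0821 and 0.0959). Left untested in atrium-like parts were Adamts13, Adamts16, Timp4 and 9 MMPs, and in ventricle-like parts Adamts13, Adamts16, Adamts18 and 10 MMPs.

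**Figure D5:**
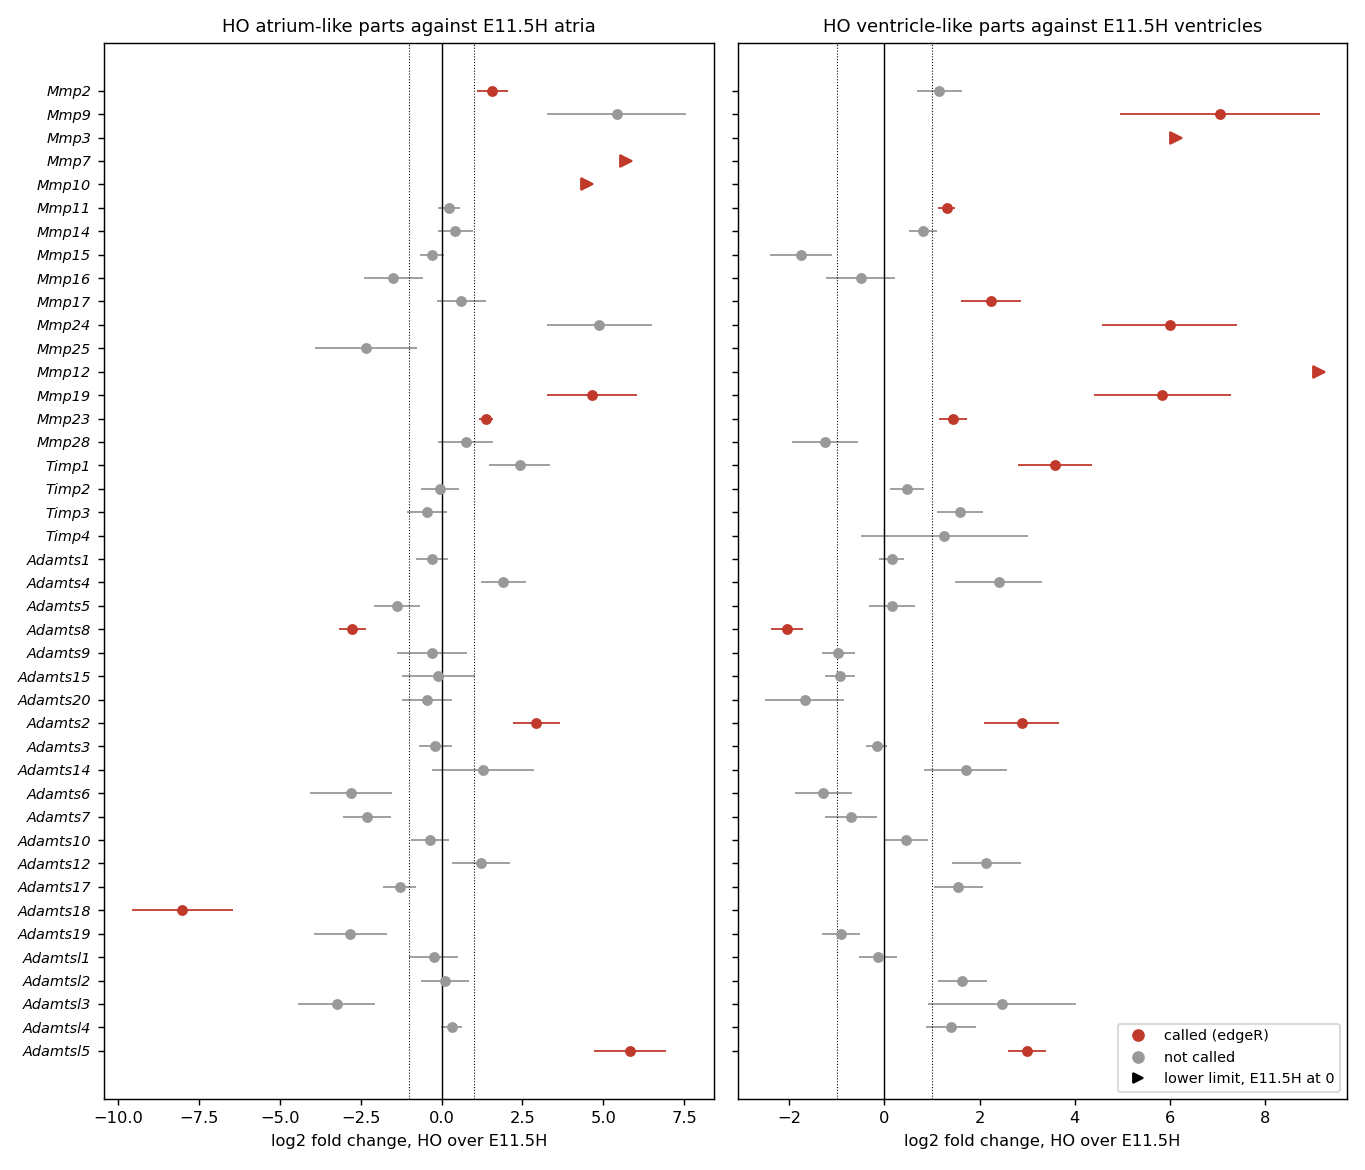
Log2 fold change of HO parts over the matching chamber of E11.5H (x, with separate scales for the atrial panel on the left and the ventricular panel on the right) for members tested in either comparison (y), with bars for the standard error. Triangles are lower limits for genes at 0 in E11.5H, gaps are members not tested, and red marks the calls, which lie to the right of 0 except for Adamts8 in both panels and Adamts18 on the left.

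Between the HO parts themselves, the comparison that asks whether they carry the chamber difference, 0 of 41 tested members were called by edgeR, and 0% of the 15703 genes tested were. At an unadjusted p under 0.05 there were 2 members (Adamts3 and Adamts8) and 889 genes, and DESeq2 and limma voom also called 0 members, with 4 and 3 at an unadjusted p under 0.05. The libraries of the parts did not overlap for 4 of the 41 members and 13.3% of all genes. These were Adamts3, Adamts8, Adamts19 and Mmp11, each lower in atrium-like parts. The methods describe 3 HO samples cut into both parts, but the labels do not pair the libraries, so the parts were compared as unpaired. With the replicate number as a block, edgeR also called 0 members and 0 genes, with 5 members at an unadjusted p under 0.05.

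Adamts3 had 0.223, 0.681 and 0.565 FPKM in atrium-like and 1.48, 1.23 and 1.56 FPKM in ventricle-like parts, a log2 difference of -1.42 (SE 0.45, edgeR adjusted p = 0.750), beside -1.35 in E11.5H. For Adamts8 the log2 difference was -1.60 (SE 0.53, edgeR adjusted p = 0.750), beside -0.86 in E11.5H (SE 0.21, edgeR adjusted p = 0.0234). Timp3, the inhibitor called in E11.5H, was at -0.96 (SE 0.79, edgeR adjusted p = 0.779). The differences were within 1.5 standard errors for Timp3, Mmp2 (-0.08, SE 0.65), Mmp14 (-0.16, SE 0.61), Mmp9 (-0.67, SE 2.18) and Timp1 (-1.64, SE 1.16).

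Whether the chamber difference itself differed between HOs and E11.5H was tested as an interaction over all 12 libraries. Of 43 tested members 0 were called by edgeR, where 0.152% of 16494 genes were called (0.0243% higher and 0.127% lower), and 6 members had an unadjusted p under 0.05. These were Adamts17, Mmp11, Adamtsl3, Adamtsl5, Timp3 and Adamts18, listed here after their values were seen. DESeq2 called 1 member, Adamts17, and 444 of the 16494 genes. The edgeR value of Adamts17 was -2.88 (SE 0.77, edgeR adjusted p = 0.234). The limma voom fit called 0 members and 12 genes, with 6 members at an unadjusted p under 0.05. Without the second atrium-like library edgeR called 1 member, Adamts19, and 216 of 16954 genes. For Timp3 the interaction was -2.04 (SE 0.86, edgeR adjusted p = 0.407) and for Mmp15 1.42 (SE 0.81, edgeR adjusted p = 0.522).

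Other genes of the pathway were counted over 39 genes, namely activators and inducers, further inhibitors, tolloid and procollagen C-proteinases, matrix substrates and clearance receptors. Between the chambers of E11.5H 2 of 33 tested were called higher and 5 lower in atria, where 2.92% and 1.97% of all genes were. Spock1 (log2 fold change 4.06) and Spock2 (1.71), proteoglycans with inhibitor domains, were the 2 higher, and Pcsk6 (-3.56), a proprotein convertase, Eln (-2.66), elastin, and A2m (-1.83), a broad protease inhibitor, were lowest in atria against ventricles. Vcan, versican, the main ADAMTS substrate of the cardiac jelly, was chosen after its values were seen. It had 16, 14.8 and 12.96 FPKM in atria and 40.9, 41.8 and 36.1 FPKM in ventricles, well apart (-1.51, SE 0.09, edgeR adjusted p = 3.06e-06).

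In atrium-like parts 4 of 35 pathway genes were called higher and 3 lower than in atria, against 16% and 8.81% of all genes. In ventricle-like parts 7 of 36 were called higher and 7 lower than in ventricles, against 11.6% and 7.35%. Plaur, the urokinase receptor, had 1.42 to 4.26 FPKM in E11.5H and 42.8 to 72.3 FPKM in HOs (5.12, edgeR adjusted p = 0.00123, and 3.87, edgeR adjusted p = 0.00118). Hapln1, a link protein of versican and hyaluronan, fell by 5.60 in atrium-like and 5.40 in ventricle-like parts on the log2 scale. Other genes with large changes were Eln (2.42), Tll1 (-4.89) and Fbn2 (-2.93) in atrium-like parts and Spock1 (6.39), Vwf (-3.65) and Pcsk6 (-2.92) in ventricle-like parts. Vcan had 3.91 to 13.9 FPKM in HOs and was called lower in ventricle-like parts (-2.42). Between the HO parts and in the interaction edgeR called 0 of 37 pathway genes, with 0 and 5 at an unadjusted p under 0.05.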

How the data were processed

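RNA-seq libraries of 12 samples were used, in 4 groups of 3 taken from the labels. According to the methods and the submitters' processing notes, reads were mapped to mm10 with STAR. The authors deposited 2 values for every gene and library, an expected count of fragments with no normalization (23.8% of the values were not whole) and an FPKM. STAR's version, the annotation release, the counting tool and its use of strand are not given in the sources used here.

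Counts were rounded and fitted on the whole table by edgeR (4.0.16, R 4.3.3) with TMM factors, the quasi-likelihood test and Benjamini-Hochberg adjustment, after filterByExpr at minimum count 10. Comparisons of 2 groups used their 6 libraries and the interaction all 12. Each SE is the log2 fold change divided by the root of the F statistic. Alternatives were DESeq2 1.42.0, limma 3.58.1, other size factors and filters, scaling to fibroblast genes, all libraries in 1 fit, a replicate block and the omission of single libraries. Scripts were tested on simulated data. A fold against a group at 0 is a limit from 3 fragments per library. Plots were made in Python 3.11.15 with matplotlib 3.10.9.

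All 51 members matched RefSeq by Entrez ID. Core members of each role, every called member (up to 12 per comparison) and up to 3 called pathway genes per direction are named, others by range and count. The members and lists were chosen with earlier results of these data known. Promoter sequences are from RefSeq GRCm38.p6. A pathway gene that the naming rule would include is not reported here.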

Additional observations from a re-analysis of the deposited data

Results flagged for a closer look

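Mmp11 was singled out because the chambers moved in opposite directions in the 2 tissues. Its FPKM was higher in every atrial than in every ventricular library of E11.5H and lower in every atrium-like than in every ventricle-like library of HOs. The interaction was -1.092 on the log2 scale (SE 0.38, edgeR adjusted p = 0.331) and was not called. With TMM-scaled CPM in place of FPKM the HO parts overlapped. Groups of 3 libraries are too small for a test of single outlying libraries.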

How the results depend on the processing

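Under other size factors, filters and tests, 0 members were called between the HO parts in every setting run (edgeR, DESeq2 and limma voom), with each library left out as well. Over all genes DESeq2 called 59 of 15703 there and the other settings 0. Below, the calls over all genes follow the member counts in the same order of settings. Between the chambers of E11.5H the count was 6, and 15 with no fold limit, 0 by edgeR in the fit of all 12 libraries (5 at an unadjusted p under 0.05) and 3 to 6 with a library left out. Over all genes it was 712, 1982, 30 and 538 to 765, of 14536 to 16494 tested. Against atria it was 9, and 17 by DESeq2, 14 in the fit of all 12 libraries, 18 with fibroblast scaling and 2 to 16 with a library left out. Over all genes it was 3821, 4794, 4387, 5844 and 1662 to 5495, of 15418 to 16494 tested. Against ventricles it was 12, and 20 by DESeq2, 5 by limma voom, 3 with fibroblast scaling and 4 to 23 with a library left out. Over all genes it was 2859, 3742, 2288, 732 and 1116 to 3725, of 15094 to 16005 tested. In the interaction it was 0, and 1 by DESeq2 and 0 to 1 with a library left out. Over all genes it was 25, 444 and 2 to 216, of 16494 to 17072 tested. The cause was not tested. With a replicate block the counts were 5, 0, 6, 10 and 0, and over all genes 621, 0, 2806, 2003 and 5. The replicate numbers do not pair the samples by the labels, and the correlation of same-numbered deviations was -0.088, 0.635 and 0.428 between the HO parts and 0.0199 to 0.0845 between the chambers of E11.5H, and not every sample correlated best with its own number. Library totals alone shifted the median of all genes by 0.098 between the chambers of E11.5H, -0.146 between the HO parts, -0.134 against atria, 0.137 against ventricles and -0.246 in the interaction. Fibroblast scaling shifted it by -0.268 between the HO parts, -1.11 against atria, -1.24 against ventricles and 0.156 in the interaction, so a sign under it gives no direction for a single member. These values changed sign. With library totals, Adamts1 was 0.017 between the chambers of E11.5H, Adamtsl1 0.002 against ventricles and Adamts2 -0.14 in the interaction. With limma voom, Adamts9 was -0.362 between the HO parts and -0.09 in the interaction, and Adamts5 -0.008 against ventricles. With the replicate block, Adamts9 was -0.267 between the HO parts and Adamts2 -0.127 in the interaction. With fibroblast scaling, Mmp2 was 0.044 and Adamts2 0.024 between the HO parts, Mmp11 -0.89 and Mmp14 -1.068 against atria, Adamtsl1 0.111 in the interaction, and Mmp2 -0.801, Mmp14 -0.846, Timp2 -1.173, Timp3 -0.265, Adamts1 -1.47 and Adamts5 -1.728 against ventricles. With a library left out, ranges that crossed 0 between the chambers of E11.5H were -0.546 to 1.786 for Mmp9, -0.184 to 0.039 for Adamts1, -0.453 to 0.161 for Adamts2 and -0.549 to 0.072 for Adamtsl1. Between the HO parts they were -0.755 to 0.358 for Mmp2, -3.623 to 2.571 for Mmp9, -1.041 to 0.205 for Mmp14, -0.879 to 0.974 for Adamts9 and -1.247 to 0.25 for Adamts2. Against atria they were -0.02 to 0.47 for Mmp11, -0.492 to 0.765 for Mmp14, -1.039 to 0.327 for Timp2, -0.794 to 0.069 for Adamts1, -1.62 to 0.231 for Adamts9 and -1.47 to 0.178 for Adamtsl1. Against ventricles they were -0.137 to 0.369 for Adamts1, -0.379 to 0.482 for Adamts5 and -0.423 to 0.199 for Adamtsl1. In the interaction they were -0.293 to 0.821 for Mmp2, -4.622 to 1.578 for Mmp9, -0.645 to 1.205 for Adamts9, -1.075 to 0.418 for Adamts2 and -1.31 to 0.317 for Adamtsl1. In TMM-scaled CPM the members whose libraries did not overlap were 21 between the chambers of E11.5H (32.7% of all genes), 3 between the HO parts (11.8%), 19 against atria (54.1%) and 21 against ventricles (50.9%). With 3 libraries a group and wide spread between HO replicates, a difference between HO parts that was not called is not shown to be absent, and members under 3 fragments cannot be told from 0 at this depth.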
